A study of Homo sapiens with 12 samples.

Results

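Interferon-stimulated genes are the genes that cells switch on after sensing interferon. A list of 51 such genes, chosen by name, was followed through RNA sequencing of prostate cancer cell lines in which the glycosyltransferase GALNT7 was lowered or raised. All 51 had an identifier among the 59424 genes of the tables. CWR22Rv1, a prostate cancer line with high GALNT7, carried either a lentiviral control hairpin (shControl) or a hairpin for GALNT7 knockdown (GALNT7 KD). DU145, a prostate cancer line with lower GALNT7, carried either a lentiviral open reading frame control (OE control) or a lentivirus for GALNT7 overexpression (GALNT7 OE). Each of the 4 groups had 3 libraries labelled as biological replicates, which gave 12 libraries in all. The lines were made by stable lentiviral transduction, so controls as well as treated cells carry an integrated vector. Whether the replicates of a group came from separate transductions or clones was not given in the sources used here, and the p-values then measure only the spread between these libraries. The labels name no interferon treatment. Values are normalised read counts, in which the reads of a gene are divided by a size factor of the library, and the table of each line was scaled on its own. Every test therefore stays within a line, and levels in the other line are set beside it as a description.

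Type I interferons bind the receptor chains IFNAR1 and IFNAR2 and activate the kinases JAK1 and TYK2. STAT2 is then phosphorylated and joins IRF9 in a complex called ISGF3, which binds the interferon-stimulated response element (ISRE). Interferon gamma acts through its own receptor and through promoters that hold the gamma-activated site (GAS). The products fall into RNA sensors that detect viral RNA, transcription factors that feed back on the pathway, enzymes that attach the ubiquitin-like protein ISG15 or ADP-ribose to other proteins, and effectors that block entry, translation or replication of viruses. Unstimulated epithelial cells are known to keep many of these genes at a low tonic level.

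The targeted gene followed the labels. GALNT7 had 862, 1042 and 1093 normalised counts in the shControl libraries and 481, 501 and 400 in the GALNT7 KD libraries. It fell by 1.11 on the log2 scale (SE 0.129, adjusted p = 0.005123, limma) in knockdown and rose by 1.18 in overexpression. Reads recovered from the tables came to 18364512 to 22264533 per library in CWR22Rv1 and 21628718 to 24356910 in DU145. The epithelial genes KRT8, KRT18, CDH1 and EPCAM were present in both lines. KLK3 and TMPRSS2 reached at most 4.77 normalised counts in any DU145 library.

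The promoters of the listed genes held the response elements more often than promoters in general. RefSeq sequences of build GRCh38.p14, 250 bases before the transcription start, were at hand for 41 of the 51 genes. The ISRE core, searched on both strands as TTTC followed after any 2 bases by TTTC again, was found in 22 of them (53.7%) against 3.07% of all 27305 promoters. The GAS letters TTCNNNGAA, also on both strands, were found in 10 (24.4%) against 6.78% of all promoters. In 6 genes both were present, and in BST2, IFI27 and EPSTI1 of these the matches overlapped. A match is a match of letters and not a measured binding site. The 60-base windows below are those of the genes that hold the ISRE core among the genes with the largest changes in DU145 described further on. They are written 5′ to 3′ on the strand of the gene, and the capitals mark the matches to the core or its reverse complement. They lie at chr17:78979947-78980006 (LGALS3BP, minus strand), chr11:320870-320929 (IFITM3, minus), chr1:78649729-78649788 (IFI44, plus), chr1:1013362-1013421 (ISG15, plus), chr1:27672294-27672353 (IFI6, minus), chr7:93118081-93118140 (SAMD9, minus) and chr10:89327833-89327892 (IFIT3, plus).
LGALS3BP: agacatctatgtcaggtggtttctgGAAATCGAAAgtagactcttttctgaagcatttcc
IFITM3: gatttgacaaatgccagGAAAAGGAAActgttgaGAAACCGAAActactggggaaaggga
IFI44: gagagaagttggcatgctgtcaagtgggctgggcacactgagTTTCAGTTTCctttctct
ISG15: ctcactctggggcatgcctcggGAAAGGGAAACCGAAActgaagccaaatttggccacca
IFI6: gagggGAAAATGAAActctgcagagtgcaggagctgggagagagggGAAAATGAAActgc
SAMD9: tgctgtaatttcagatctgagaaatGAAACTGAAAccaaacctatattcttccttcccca
IFIT3: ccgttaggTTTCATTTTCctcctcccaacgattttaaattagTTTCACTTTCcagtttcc

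The factor genes IRF1 and IRF9 held the GAS letters and no ISRE core in these 250 bases. Their windows are shown because both genes carry the pathway forward, and here the capitals mark the GAS match. They lie at chr5:132490864-132490923 (IRF1, minus strand) and chr14:24161176-24161235 (IRF9, plus).
IRF1: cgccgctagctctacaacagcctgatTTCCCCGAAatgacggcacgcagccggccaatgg
IRF9: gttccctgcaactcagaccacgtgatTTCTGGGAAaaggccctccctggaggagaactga

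At baseline more of the list was well expressed in the DU145 control cells than in those of CWR22Rv1. In DU145 OE control cells 35 of the 51 genes had a mean of at least 100 normalised counts, 12 lay between 5 and 100 and 4 lay below 5. In CWR22Rv1 shControl cells 15 reached 100, 21 lay between 5 and 100 and 15 lay below 5. Of the 15 genes that reached 100 in CWR22Rv1, 14 also did so in DU145, and CMPK2 was below 5 there. Of the 15 genes below 5 in CWR22Rv1, 6 reached at least 100 in DU145. OAS2, SAMD9 and SAMD9L had no read in any CWR22Rv1 library. The opposite pattern was seen for RSAD2, the antiviral enzyme viperin, and its neighbour CMPK2, a mitochondrial nucleotide kinase. RSAD2 had 56.9, 72.5 and 44.9 normalised counts in the shControl libraries and 0, 0 and 2.02 in the OE control libraries.

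Levels of different genes were compared within a line per kilobase of annotated exon. In shControl cells the RNA-editing enzyme ADAR was highest with 1373 ± 69.0 normalised counts per kilobase (SD, n = 3). ISG15 followed with 1053 ± 14.9 and the ubiquitin ligase DTX3L with 224 ± 44.5, so that a steep drop separated ISG15 from the rest. The ISG15 ligase TRIM25 at 172 ± 25.2 lay within the spread of DTX3L, and IFITM3, EIF2AK2 and STAT2 at 134 ± 10.3, 125 ± 19.5 and 124 ± 20.1 could not be ordered among themselves. In OE control cells IFITM3 was highest with 2657 ± 58.7 per kilobase. ADAR had 1477 ± 47.0, IFITM2 785 ± 24.2, LGALS3BP 736 ± 16.7, STAT2 704 ± 8.7, IFI6 669 ± 18.9 and ISG15 552 ± 38.4. The steps from IFITM3 to ADAR and from ADAR to IFITM2 exceeded the SDs many times over, while ISG15 and TRIM25 at 505 ± 37.6 lay within their spread. With the longest transcript as length, 9 of the 10 highest genes of each line were again among its 10 highest. IFITM1, IFITM2 and IFITM3 are near copies of each other, and between 35.3% and 45.2% of their 31-base words occurred in another gene, so their split of reads is uncertain.

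**Figure D1:**
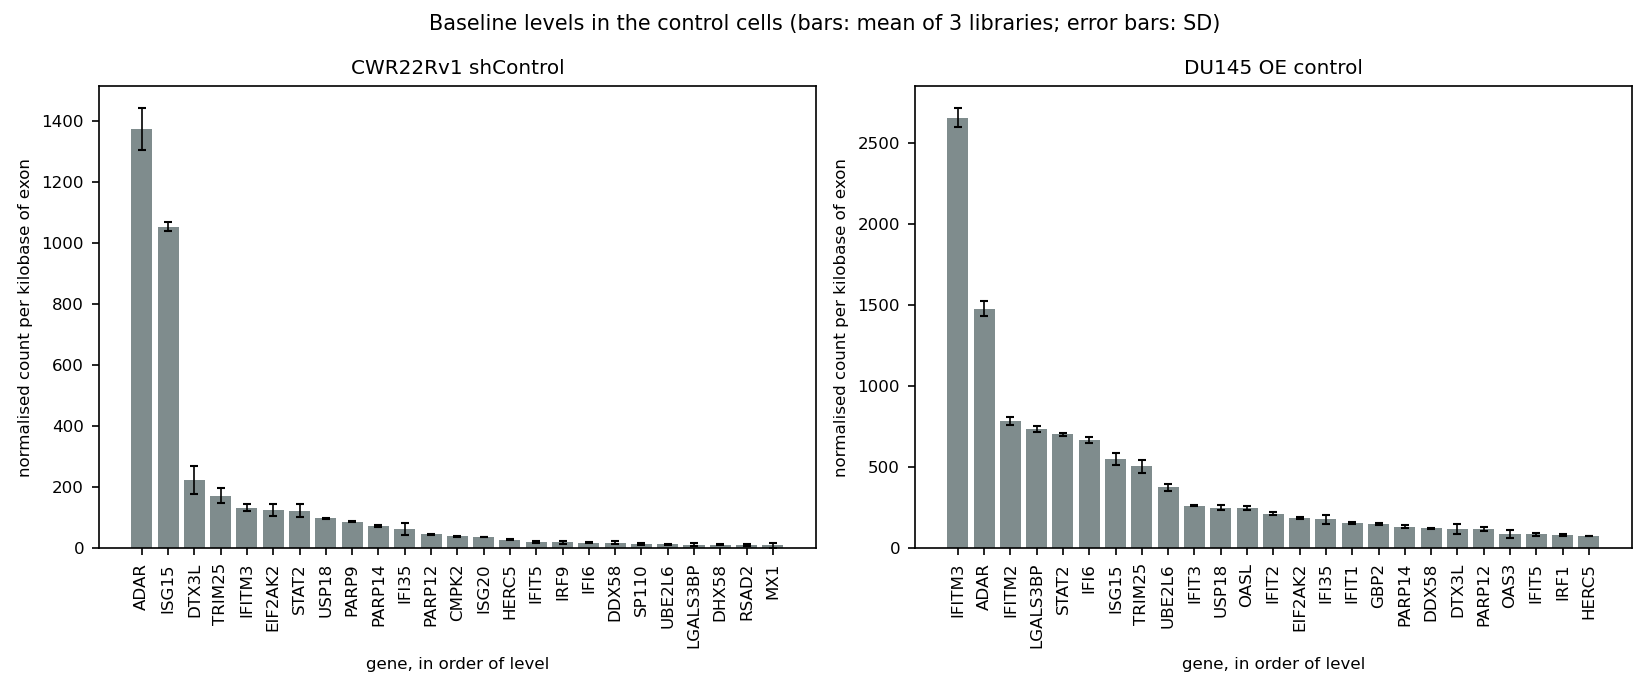
Mean level of the 25 highest interferon-stimulated genes in the control cells of each line, in normalised counts per kilobase of exon on a linear axis (bars, mean of 3 libraries; error bars, SD). ADAR and ISG15 stand above the other genes in CWR22Rv1, and IFITM3 at 2657 leads in DU145; the panels have separate axes because the tables were scaled separately.

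GALNT7 overexpression in DU145 was accompanied by lower levels of most of the interferon-stimulated genes that could be tested. Of the 45 genes with a mean of at least 5 normalised counts, 33 fell (73.3%), 1 rose and 11 did not pass the test (limma, adjusted p under 0.05 over all 18705 genes). Across all genes tested, 20.5% were called lower, 22.9% higher and 43.5% in either direction. The median log2 change was -0.95 over the 45 genes and -0.01 over all genes. Every GALNT7 OE library lay below every control library in each of the 33 genes that fell and in ADAR and TRIM22, a pattern held by 27.1% of all genes. Without regard to the test, 37 of the 45 (82.2%) had groups that did not overlap, against 55.3% of all genes. The shift was seen in each treated library, with medians over the 45 genes of -1.01, -0.97 and -0.83 against the control mean. OAS1 and BST2 passed the minimum only through the control libraries and had to differ; without them 31 of 43 fell and the median was -0.94. IRF7, RSAD2, CMPK2, SAMD9L, IFI44L and XAF1 were too low to be tested. With values rescaled to the 75th percentile of each library, the calls over all genes shifted from 4290 higher and 3842 lower to 3380 higher and 4736 lower, and the calls on the list from 34 to 36.

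The mitochondrial share of the reads also differed between these groups, with 4.38% to 5.27% in the OE control libraries and 1.69% to 3.45% in the GALNT7 OE libraries. Of 12 markers of leukocytes, endothelium and fibroblasts, 5 had a mean below 5 in the controls and 7 in the treated cells. Their summed level was 2983 to 3295 normalised counts in OE control and 1109 to 1283 in GALNT7 OE, most of it CD68, a lysosomal protein of macrophages that epithelial lines also express. CD68, the monocyte receptor CD14 and the fibroblast collagen COL1A1 were called lower, with log2 changes of -1.37, -1.60 and -2.01. The other markers tested, LYZ, PDGFRB and PECAM1, did not pass the test, with log2 changes of -0.62, -0.03 and 1.08. PTPRC, which marks leukocytes, reached at most 2.10 normalised counts and CD3E was at 0 in every library. The part of these differences in the result on the list was not tested.

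**Figure D2:**
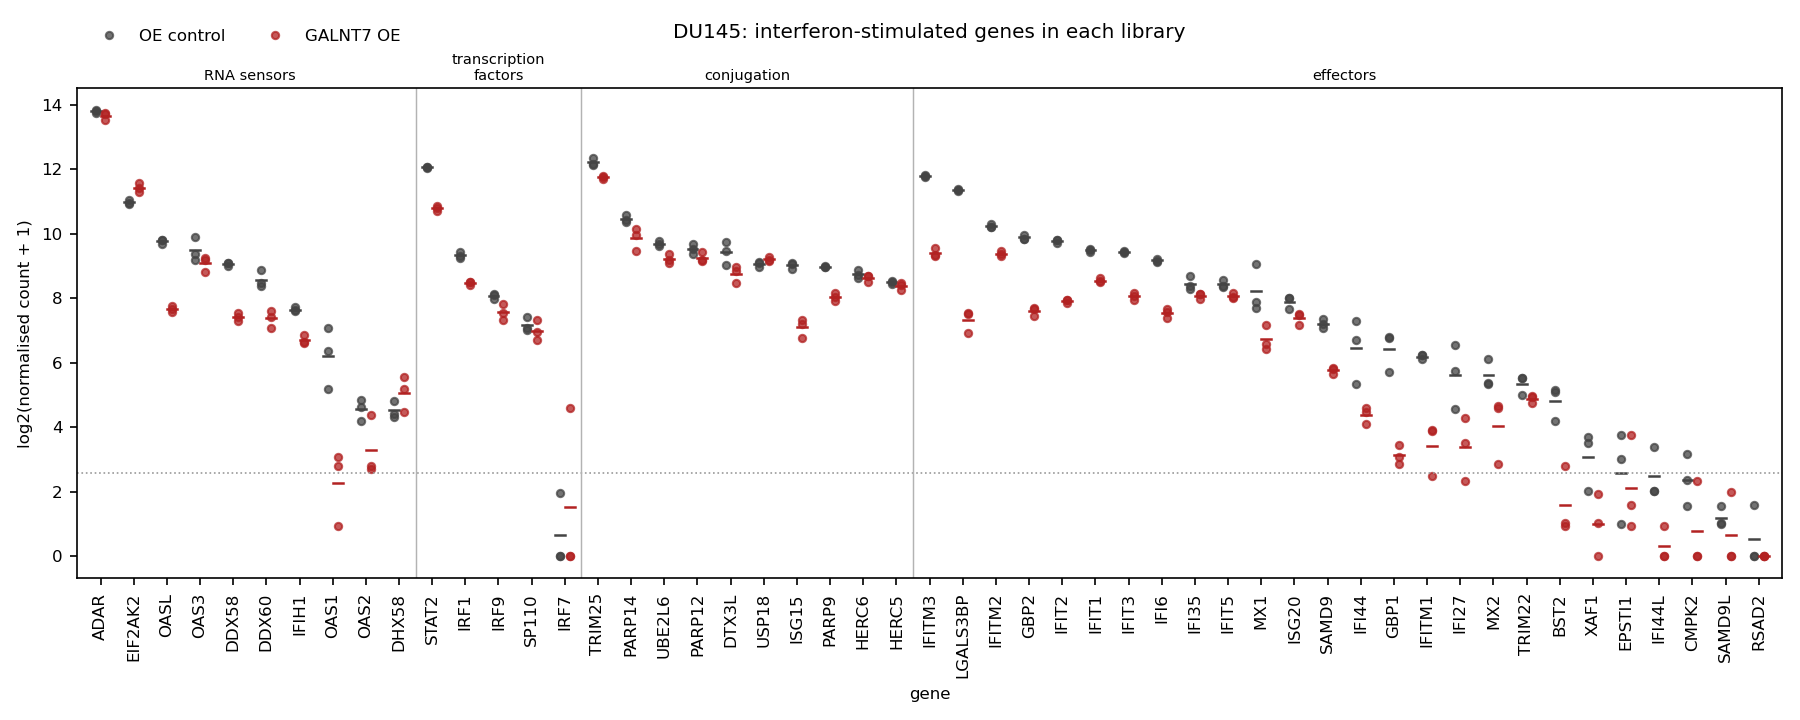
Level of each interferon-stimulated gene in the 6 DU145 libraries, on a log2 axis of normalised count plus 1, grouped by role (points, libraries; bars, means of 3; dotted line, the minimum mean of 5 used for testing). All GALNT7 OE points lie below all control points for 35 tested genes, of which ADAR and TRIM22 were not called, with LGALS3BP and OASL far apart and EIF2AK2 the other way round.

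Among the RNA sensors and RNA-binding enzymes, 5 of 10 fell (50%) and 1 rose (10%) in DU145, beside 20.5% and 22.9% of all genes. DDX58, which encodes the RNA helicase RIG-I, had 548, 514 and 541 normalised counts in OE control and 157, 170 and 186 in GALNT7 OE. The groups lay far apart, and DDX58 fell by 1.64 (log2, SE 0.097, adjusted p = 3.2e-05). OASL, a relative of the oligoadenylate synthetases that binds RIG-I, went from 901, 830 and 890 to 217, 189 and 203. Its mean was 4.30-fold lower, a log2 change of -2.10 (SE 0.0885, adjusted p = 8.4e-06). IFIH1, the sensor of long double-stranded RNA also called MDA5, had 194, 197 and 210 in the controls and 96.2, 115 and 99.6 in the treated cells, and fell by 0.95 (SE 0.12, adjusted p = 0.0008797). All 3 of these genes thus had treated libraries well below the lowest control. DDX60 and OAS1 also fell, and without OAS1, which had to differ, the count was 4 of 9. DHX58, the regulatory helicase LGP2, went the other way in its values, from 19.1, 20.5 and 27.2 to 46.1, 21.3 and 35.7, but its groups overlapped (log2 0.55, 95% interval -0.23 to 1.34, adjusted p = 0.2211). EIF2AK2, the kinase PKR that halts translation on double-stranded RNA, was the single gene of the list that rose, from 1980, 2111 and 1959 to 2506, 3034 and 2763 (log2 0.45, SE 0.0782, adjusted p = 0.003503). ADAR, OAS2 and OAS3 did not pass the test. ADAR had a log2 difference of -0.14 with an interval of -0.27 to -0.01. OAS2, low at 5.54 to 27.6 normalised counts, passed without GALNT7 OE replicate 3 (log2 -1.79, adjusted p = 0.0109).

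The transcription factors of the pathway fell in 3 of 4 tested cases in DU145 (75%, beside 20.5% of all genes). STAT2, a subunit of ISGF3, had 4259, 4362 and 4287 normalised counts in OE control and 1851, 1686 and 1796 in GALNT7 OE. Replicates differed little from each other, and STAT2 fell by 1.28 (SE 0.0509, adjusted p = 7.1e-06). IRF1, an early factor of the interferon gamma response, went from 695, 613 and 631 to 341, 363 and 362, a log2 change of -0.86 (SE 0.0829, adjusted p = 0.0002583). IRF9, the DNA-binding subunit of ISGF3, had 281, 275 and 252 in the controls and 161, 185 and 223 in the treated cells. The groups did not overlap and IRF9 fell by 0.51 (adjusted p = 0.02332), but without OE control replicate 1 or 2 or GALNT7 OE replicate 1 or 2 its adjusted p was 0.07335, 0.07043, 0.05359 and 0.06418. Of its 31-base words 49.5% occurred in another gene, mostly the overlapping model AL136295.5, so part of its reads may belong there. SP110, a nuclear body protein, had 170, 129 and 134 against 123, 103 and 160, with overlapping groups (log2 -0.17, interval -0.64 to 0.30). IRF7, the factor that amplifies interferon production, was near 0 with 2.86, 0 and 0 in the controls and 0, 0 and 23.1 in the treated libraries, the last standing alone.

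In the group of ISG15 and ADP-ribose conjugation, 6 of 10 genes fell in DU145 (60%, beside 20.5% of all genes). ISG15, the ubiquitin-like protein itself, had 546, 535 and 479 normalised counts in OE control and 160, 147 and 108 in GALNT7 OE. The treated libraries lay well below the lowest control, and ISG15 fell by 1.92 (SE 0.161, adjusted p = 0.0001429), its mean being 3.75-fold lower. UBE2L6, the enzyme that carries ISG15 to its ligases, fell by 0.47 and TRIM25 by the same amount. PARP9, PARP14 and DTX3L, which lie near each other on chromosome 3 and form ADP-ribosyl transferase and ubiquitin ligase complexes, fell by 0.95, 0.59 and 0.67. The calls on PARP14 and DTX3L were less firm than that on PARP9. The adjusted p of PARP14 was 0.05719, 0.09204, 0.06736 and 0.0548 without OE control replicate 1, 2 or 3 or GALNT7 OE replicate 3. That of DTX3L was 0.09737, 0.1038, 0.07126 and 0.1048 without OE control replicate 1 or 2 or GALNT7 OE replicate 1 or 2. The ISG15 ligase HERC5, the related HERC6, the ISG15 protease USP18 and PARP12 did not pass the test. USP18 had 558, 547 and 504 against 588, 576 and 619 (log2 0.15, interval -0.03 to 0.33). Its groups did not overlap, and with values centred on the genes of the same chromosome it was called higher (log2 0.30, adjusted p = 0.02771). Of its 31-base words 30.8% occurred in another gene, mostly USP41.

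Of the 21 effectors tested, 19 were lower (90.5%, beside 20.5% of all genes) and none higher. Without BST2, 18 of 20 were lower. LGALS3BP, a secreted glycoprotein that binds galectin 3, had the largest change of the members above a mean of 50. It had 2705, 2615 and 2591 normalised counts in OE control and 187, 120 and 181 in GALNT7 OE. The mean was 16.2-fold lower, a log2 change of -4.04 (SE 0.169, adjusted p = 8.2e-06). IFITM3, a membrane protein that holds viruses in endosomes, went from 3666, 3570 and 3509 to 750, 655 and 641, and its mean was 5.25-fold lower (log2 -2.39, SE 0.073, adjusted p = 3.2e-06). GBP2, a guanylate-binding GTPase, went from 927, 920 and 1000 to 208, 176 and 201 (log2 -2.28, adjusted p = 8.2e-06). In these 3 genes the spread within groups was small beside the gap between them.

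The IFIT proteins bind foreign RNA and block its translation, and their genes IFIT2, IFIT3, IFIT1 and IFIT5 lie side by side at chr10:89283694-89421001 (hg38). All 4 fell in DU145, by unequal amounts. IFIT2 had 907, 889 and 848 normalised counts in OE control and 245, 246 and 232 in GALNT7 OE (log2 -1.87, SE 0.0749, adjusted p = 7.1e-06). IFIT3 had 699, 703 and 683 against 247, 284 and 271 (log2 -1.38, adjusted p = 3.6e-05). IFIT1 fell by 0.94 and IFIT5 by 0.37, so the change of IFIT5 was the smallest of the cluster. The 95% interval was -0.61 to -0.13 for IFIT5 and -1.12 to -0.76 for IFIT1. Without OE control replicate 2 or 3 or GALNT7 OE replicate 1 or 3, the adjusted p of IFIT5 was 0.05487, 0.0799, 0.06297 and 0.06317.

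The other effectors with large changes differed in their spread between replicates. IFI6, a small membrane protein of mitochondria and endoplasmic reticulum, had 575, 596 and 564 normalised counts in OE control and 188, 165 and 203 in GALNT7 OE (log2 -1.64, adjusted p = 4.2e-05). SAMD9, which restricts poxviruses, had 148, 164 and 133 against 49.1, 56.4 and 55.6 (log2 -1.45, adjusted p = 0.0003149). Both had tight groups. IFI44 was less even, with 104, 39.9 and 157 against 16.0, 23.1 and 21.0 (log2 -2.08, SE 0.483, adjusted p = 0.01234). MX1, a dynamin-like GTPase that traps viral nucleocapsids, had 533, 208 and 235 against 143, 95.2 and 85.0. OE control replicate 1 stood well above the other controls, and MX1 fell by 1.49 (SE 0.38, adjusted p = 0.01801). Its adjusted p rose to 0.0554 without GALNT7 OE replicate 2 and to 0.06303 without replicate 3, and was at least 0.02007 in the other fits that left out a library. IFITM2 fell by 0.86. Below a mean of 50, GBP1, IFITM1, BST2, OAS1, IFI27 and MX2 fell as well, with log2 changes from -3.93 to -1.57. TRIM22 and EPSTI1 did not pass the test. ISG20 and IFI35 fell by 0.52 and 0.38 with adjusted p of 0.03194 and 0.04828, near the threshold. The call on ISG20 was lost without OE control replicate 1 or 2 or GALNT7 OE replicate 1 or 2, with adjusted p up to 0.1007. That on IFI35 was lost without any 1 library but OE control replicate 1 (up to 0.1288), and that on MX2 without any but GALNT7 OE replicate 1 (up to 0.1369). IFI27 lost its call without OE control replicate 2 or 3 or GALNT7 OE replicate 1 or 3 (up to 0.09).

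Calls in DU145 were found in genes with and without the promoter letters. Of the genes with the ISRE core 17 of 21 tested fell, with a median log2 change of -1.38. Of those with the GAS letters 9 of 10 fell, with a median of -1.03. Without OAS1 and BST2, which had to differ, the counts were 16 of 20 (median -1.29) for the ISRE core and 7 of 8 (median -0.72) for the GAS letters. Of those with neither, 7 of 11 fell and 1, EIF2AK2, rose, with a median of -0.47. Among genes without a promoter entry 5 of 9 fell, OASL, IFIT2 and GBP2 among them. Of all genes tested in DU145, 20.5% were called lower and 22.9% higher. The counts by promoter letters describe a short window and were not tested against each other.

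In CWR22Rv1 few of the interferon-stimulated genes were called in GALNT7 knockdown, at a share not far from that of all genes. Of the 37 genes with a mean of at least 5 normalised counts, 3 rose, 2 fell and 32 did not pass the test. The called share was 13.5%, beside 9.06% of all 17906 genes tested (5.28% higher and 3.79% lower). The median log2 change was 0.03 over the 37 genes and -0.01 over all genes, and the medians of the GALNT7 KD libraries against the control mean were 0.01, 0.02 and 0.13. Groups did not overlap in 11 of the 37 genes (29.7%), beside 32.5% of all genes. Another 14 genes were too low to be tested, and BST2 and EPSTI1 were tested with 1 group below 5. Leaving out 1 library left 1 or 2 calls of the 5, IFITM3 among them each time, except without GALNT7 KD replicate 3, when all 5 were kept: 1 without shControl replicate 1 or 3 or GALNT7 KD replicate 1 or 2, and 2 without shControl replicate 2.

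**Figure D3:**
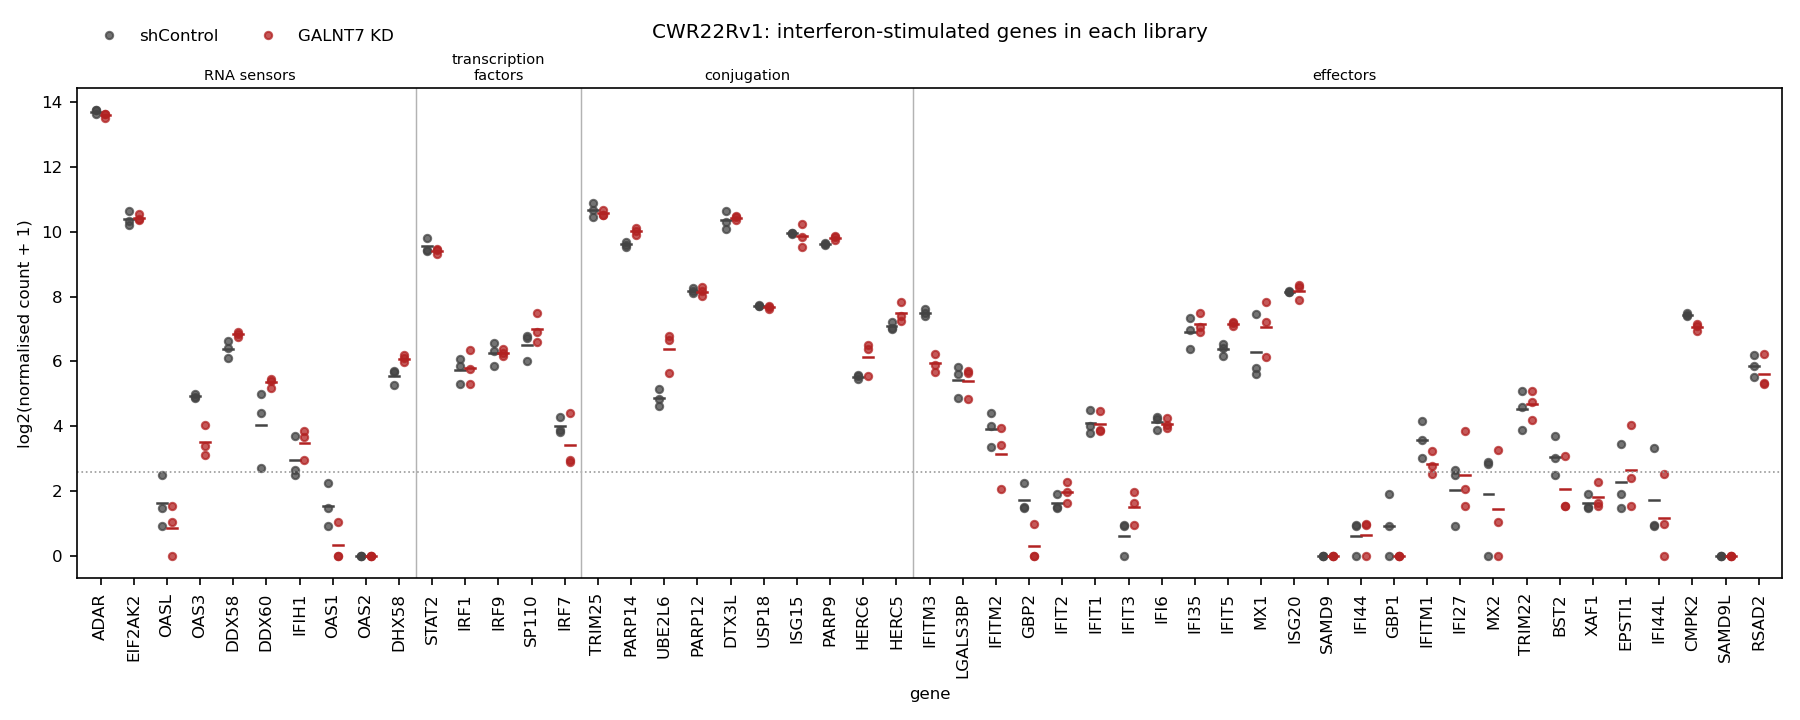
Level of each interferon-stimulated gene in the 6 CWR22Rv1 libraries, on a log2 axis of normalised count plus 1, in the gene order of the DU145 plot (points, libraries; bars, means of 3; dotted line, the minimum mean of 5). Points of both groups lie together for most genes, and IFITM3 and OAS3 stand lower and UBE2L6, IFIT5 and PARP14 higher in GALNT7 KD.

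IFITM3 was the member with the firmest change in knockdown. It had 195, 178 and 168 normalised counts in shControl and 50.3, 58.7 and 74.2 in GALNT7 KD. The mean was 2.95-fold lower, a log2 change of -1.56 (SE 0.178, adjusted p = 0.004875). IFITM1 and IFITM2 were low in this line, at 4.82 to 16.8 and 3.20 to 20.1 normalised counts, and did not pass the test. OAS3, which makes the oligoadenylates that activate RNase L, had 30.8, 29.2 and 28.4 against 7.73, 9.60 and 15.4 (log2 -1.40, SE 0.311, adjusted p = 0.03939). OAS3 lies on chromosome 12, where 202 of 922 genes tested were called lower, 19 higher, and the median log2 change was -0.28. With values centred on the genes of the same chromosome, the change of OAS3 was -1.13 (adjusted p = 0.07751). Without any 1 of the libraries other than GALNT7 KD replicate 3, its adjusted p lay between 0.09295 and 0.127.

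Of the 3 genes that rose in knockdown, UBE2L6 had the largest fold. It had 34.5, 23.9 and 27.5 normalised counts in shControl and 101, 110 and 49.1 in GALNT7 KD, replicate 3 being the lowest of the treated libraries (log2 1.50, SE 0.339, adjusted p = 0.04249). IFIT5 had 70.9, 91.1 and 85.2 against 148, 143 and 135 (log2 0.78, SE 0.146, adjusted p = 0.02292). PARP14, which transfers single ADP-ribose units, had 777, 741 and 821 against 1101, 1044 and 946 (log2 0.40, SE 0.084, adjusted p = 0.03384). None of the groups overlapped in these genes. With 1 library left out, the adjusted p of UBE2L6 and PARP14 passed 0.05 in every case but GALNT7 KD replicate 3, reaching 0.1362 and 0.1144. That of IFIT5 was 0.07624, 0.06812, 0.09032 and 0.0641 without shControl replicate 1 or 3 or GALNT7 KD replicate 1 or 2.

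The 5 factors and the main sensors did not pass the test in knockdown, and of the factors 0 had an unadjusted p under 0.05 by limma and 0 were called by edgeR or DESeq2. STAT2 had 694, 679 and 898 normalised counts in shControl and 706, 634 and 697 in GALNT7 KD (log2 -0.15, interval -0.44 to 0.15). Centred on the genes of its chromosome, 12, its log2 difference was 0.12 (adjusted p = 0.5998, limma). IRF9 had 93.3, 79.6 and 56.8 against 75.4, 71.5 and 81.9 (interval -0.48 to 0.53). Both had overlapping groups. IRF1 had 66.3, 38.9 and 56.8 against 38.7, 53.3 and 79.9, SP110 109, 105 and 64.1 against 120, 96.0 and 178, and IRF7 18.7, 13.3 and 13.7 against 6.77, 6.40 and 20.2, all with overlap. The groups of the RNA helicases DDX58, DHX58 and DDX60 did not overlap, but none of these genes passed the test. DDX58 had 98.0, 84.9 and 67.8 against 118, 115 and 107 (log2 0.45, interval 0.04 to 0.86, adjusted p = 0.1569). DHX58 had 37.3, 50.4 and 51.3 against 61.9, 67.2 and 72.2 (log2 0.54, interval 0.08 to 0.99, adjusted p = 0.137). DDX60 had 5.60, 20.3 and 31.1 against 41.6, 35.2 and 43.3 (log2 1.31, interval -0.04 to 2.65, adjusted p = 0.2032). IFIH1 was low, with 4.67, 5.30 and 11.9 against 6.77, 11.7 and 13.5. LGALS3BP, the member that changed most in DU145, had 56.0, 28.3 and 47.6 against 51.2, 27.7 and 49.1 in CWR22Rv1, a log2 difference of -0.04 with an interval of -0.87 to 0.79. ISG15 had 976, 1004 and 992 against 905, 733 and 1202 (log2 -0.10, interval -0.50 to 0.31).

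Set side by side, the changes in the lines were as follows. UBE2L6, IFIT5 and PARP14 were higher in GALNT7 KD and lower in GALNT7 OE. Their calls in GALNT7 KD were lost in most fits that left out 1 library. So were the calls on IFIT5 and PARP14 in GALNT7 OE, while that on UBE2L6 was kept. Of all genes, 9.06% were called in knockdown and 43.5% in overexpression, and the share called in opposite directions was not counted. IFITM3 was lower in both. OAS3 was lower in GALNT7 KD, and in DU145 its groups overlapped at 586, 964 and 664 against 589, 614 and 450. Of the 33 genes that fell in DU145, 19 were tested and not called in CWR22Rv1 and 10 were too low there to be tested. Whether a change differed between the lines was not tested, since the tables were scaled separately.

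**Figure D4:**
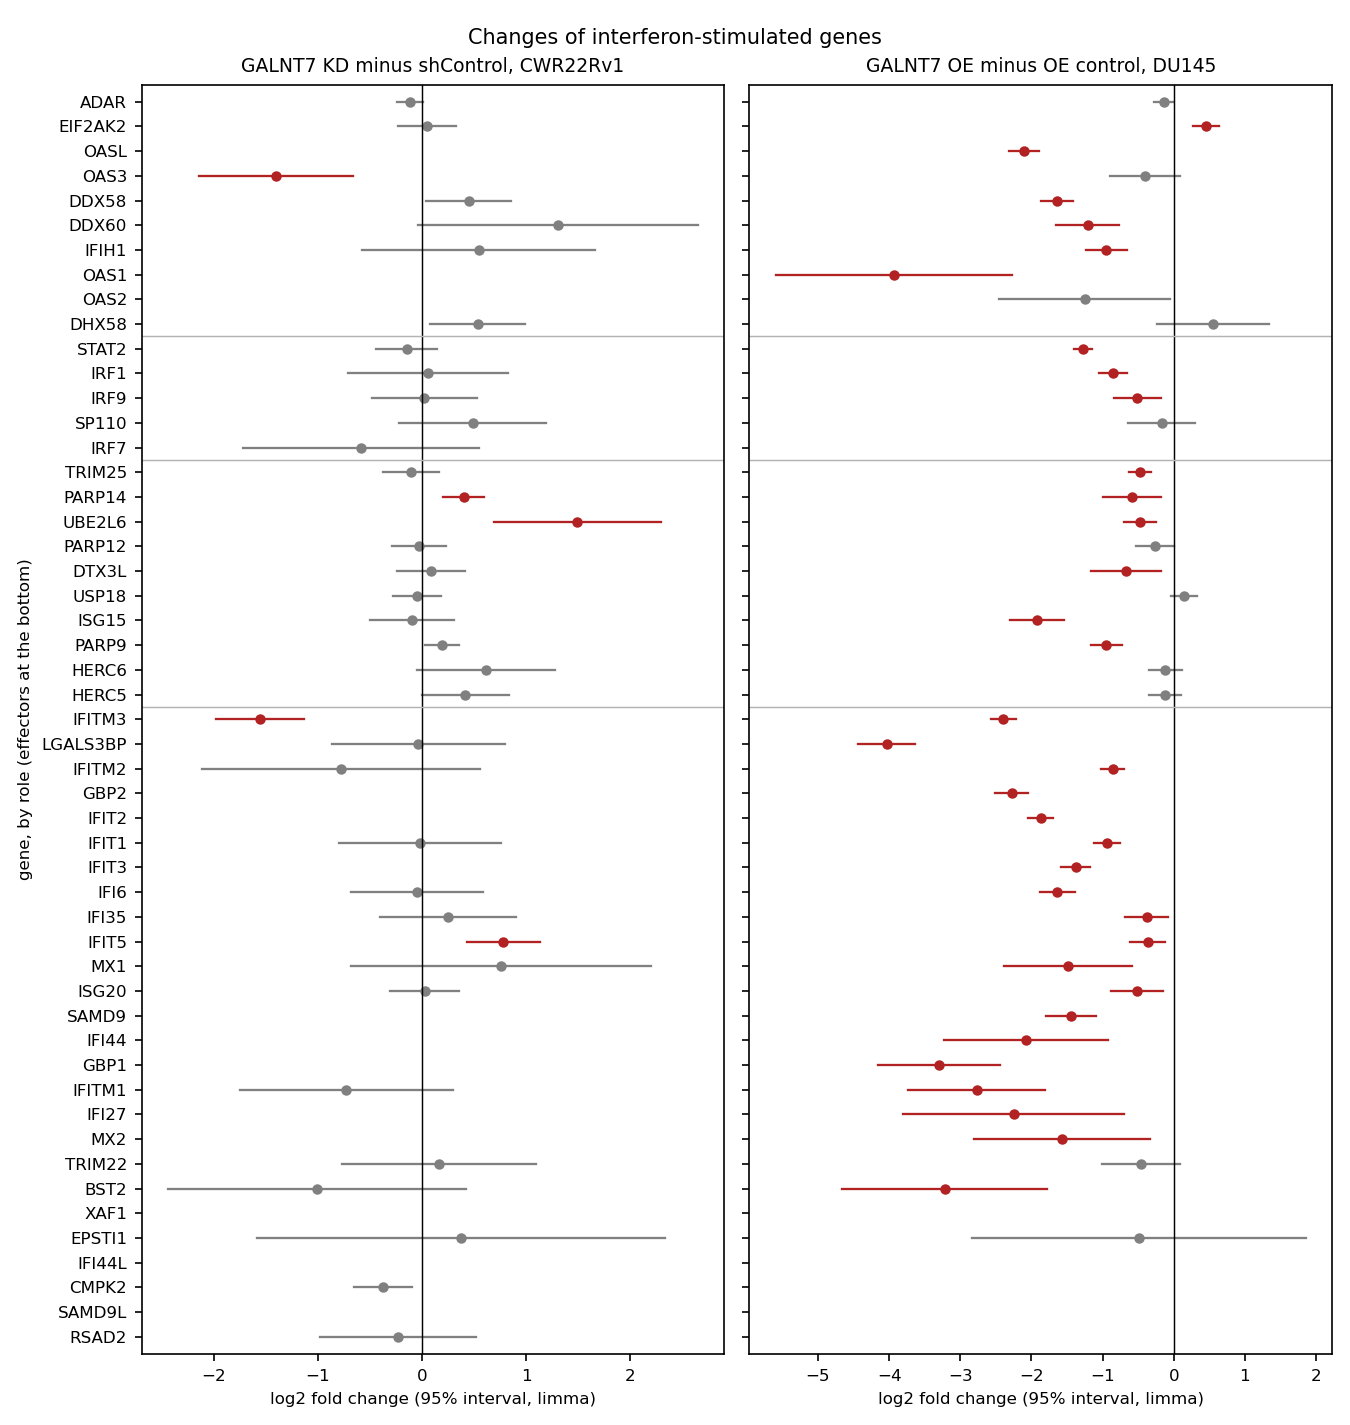
Log2 fold change of each tested interferon-stimulated gene with its 95% interval from limma, for GALNT7 KD against shControl in CWR22Rv1 (left) and GALNT7 OE against OE control in DU145 (right), with separate axes (red, adjusted p under 0.05; grey, not called; no point, too low to be tested). On the left 28 of 37 intervals span 0, and on the right 35 of 45 lie below it, those of ADAR and OAS2 without a call.

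The other parts of the pathway were followed through lists of ligands, receptors and signalling proteins, sensing proteins upstream of interferon and further interferon-stimulated genes. None of the 14 interferon genes was high enough to be tested in either line. No read was found for 13 of them in CWR22Rv1 and for 11 in DU145, where IFNE, an epithelial type I interferon, was the highest at 1.02 to 10.1 normalised counts.

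Of 12 receptor and signalling genes tested in DU145, 8 fell (66.7%, beside 20.5% of all genes) and none rose. The kinases JAK1 and TYK2 fell by 0.49 and 0.39 and the receptor chain IFNAR2 by 0.40 (log2, limma). The list also holds negative regulators of the pathway. Of these SOCS1 and SOCS3 fell by 1.54 and 0.82, and PTPN2 did not pass the test. Over the alternative fits the log2 change ranged from -1.72 to -0.87 for SOCS1 and from -0.92 to -0.76 for SOCS3. IFNAR1 had 1808, 2072 and 2506 against 2277, 2045 and 2282, with overlapping groups. In CWR22Rv1, 1 of 11 passed the test (9.09%), a share near the 9.06% of all genes. It was IFNGR1, the ligand-binding chain of the interferon gamma receptor, which rose from 789, 828 and 738 to 1152, 1089 and 1068 (log2 0.49, adjusted p = 0.0119). Its adjusted p was 0.05339 without shControl replicate 1 and 0.05855 without GALNT7 KD replicate 1. JAK1 had 76.5, 76.0 and 76.0 against 190, 272 and 47.2, with replicate 3 of GALNT7 KD below the controls, and passed without that library (log2 1.57, adjusted p = 0.01532, against 0.82 and 0.4381 with it). In DU145 IFNGR1 went from 1648, 1632 and 1677 to 608, 693 and 696 (log2 -1.31, adjusted p = 2.5e-05).

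Of 10 sensing genes tested in DU145, 6 fell (60%, beside 20.5% of all genes) and 2 rose (20%, near the 22.9% of all genes). MAVS, the adaptor of RIG-I and MDA5 on mitochondria, fell by 0.33, STING1, the adaptor of the DNA sensor cGAS, by 0.50 and TICAM1, the adaptor of TLR3, by 0.46. CGAS itself rose from 381, 386 and 364 normalised counts to 577, 630 and 601 (log2 0.68, adjusted p = 0.0005044). The kinase TBK1 had a log2 change of 0.33 (adjusted p = 0.03782), and its adjusted p lay between 0.07663 and 0.1116 without OE control replicate 1 or 3 or GALNT7 OE replicate 2 or 3. Of the 7 sensing genes tested in CWR22Rv1, 0 passed the test by limma, beside 9.06% of all genes. By limma 2 had an unadjusted p under 0.05, edgeR called 0 and DESeq2 called 1. TBK1 lies on chromosome 12. With values centred on the genes of that chromosome it was called higher in GALNT7 KD (log2 0.40, adjusted p = 0.03518, limma).

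Of 26 further interferon-stimulated genes tested in DU145, 11 fell (42.3%) and 4 rose (15.4%), beside 20.5% and 22.9% of all genes. C1S, a protease of the complement pathway, had 3869, 4396 and 3289 normalised counts in OE control and 264, 313 and 273 in GALNT7 OE (log2 -3.75, adjusted p = 3.6e-06). PML, which forms nuclear bodies, fell by 1.04. LAP3, an aminopeptidase, rose by 0.66 and SLFN11, a protein of the replication stress response, by 0.59. In CWR22Rv1, 21 were tested, of which 2 rose (9.52%), 1 fell (4.76%) and 18 did not pass the test. Of all genes there, 5.28% were called higher and 3.79% lower. The restriction factor TRIM5 rose from 431, 404 and 385 to 636, 591 and 658 (log2 0.63, adjusted p = 0.009634) and the helicase HELZ2 from 104, 142 and 89.7 to 359, 249 and 313 (log2 1.46, adjusted p = 0.0113). TRIM14 fell by 0.48 there. The adjusted p of HELZ2 was 0.05187 without shControl replicate 1 and 0.05255 without GALNT7 KD replicate 1, and that of TRIM14 lay between 0.05769 and 0.09149 without any 1 library other than GALNT7 KD replicate 3.

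**Figure D5:**
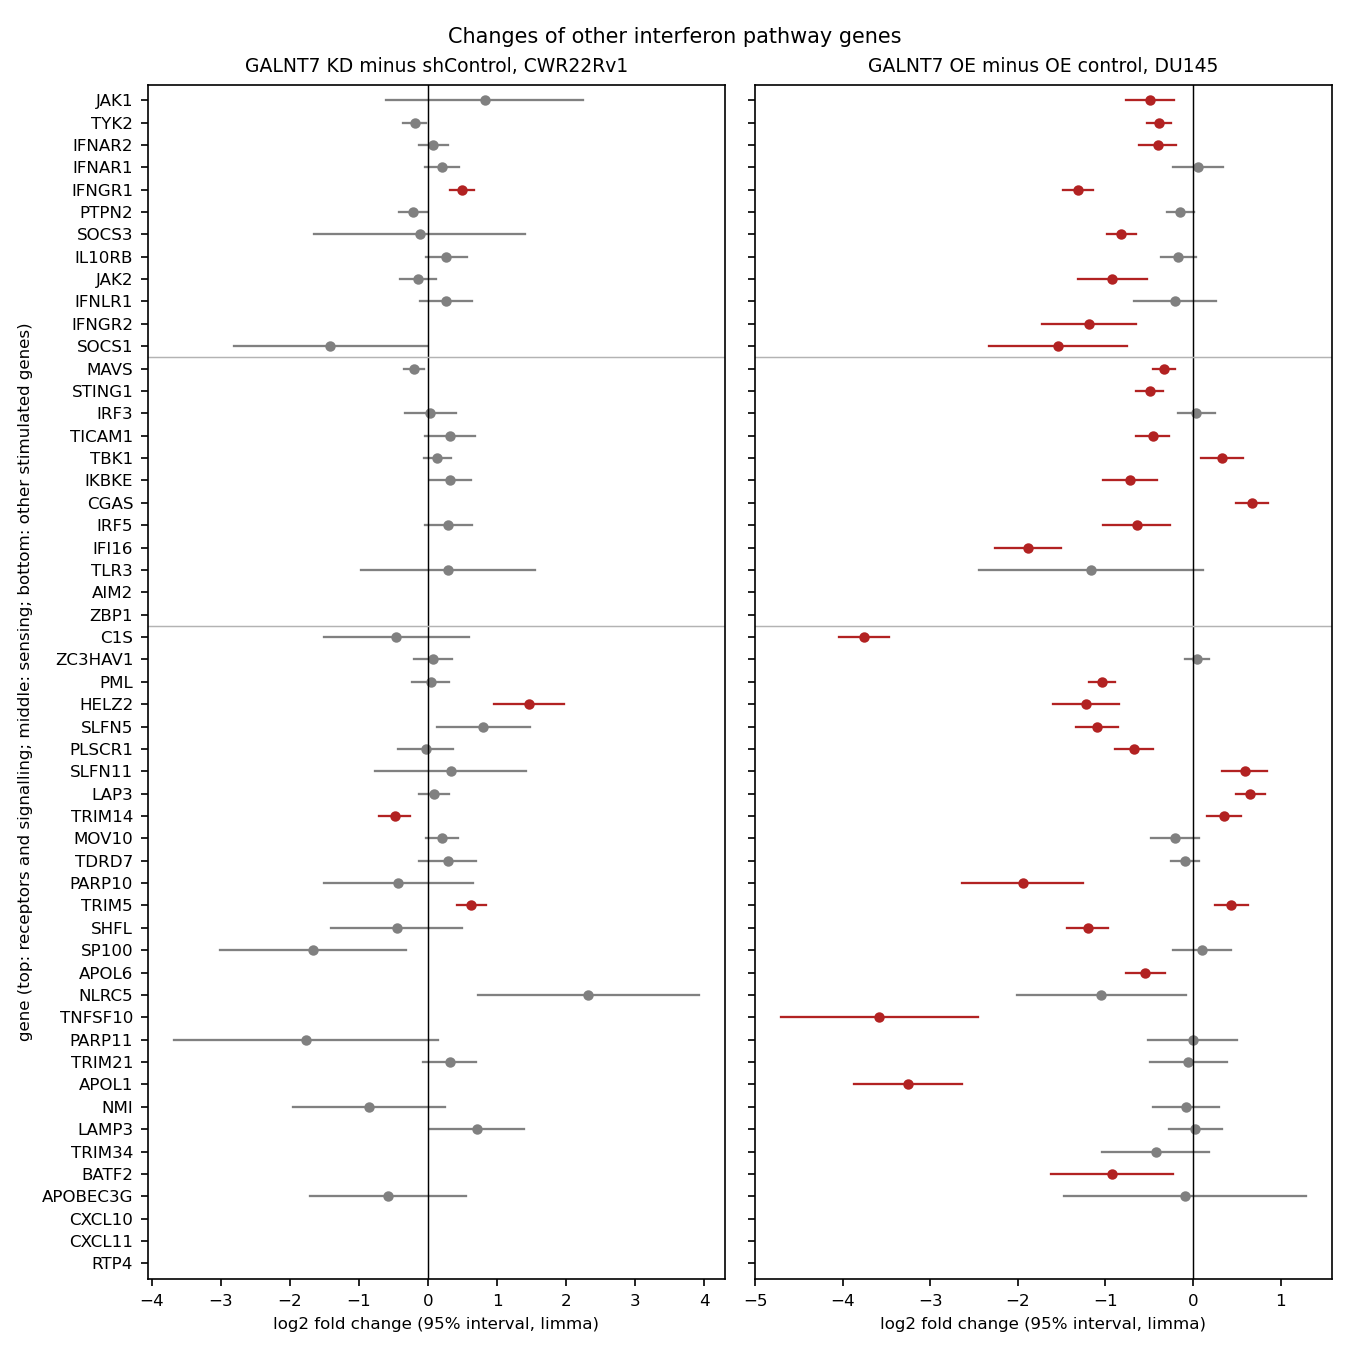
Log2 fold change with its 95% interval from limma for receptor and signalling genes (top), sensing genes (middle) and further interferon-stimulated genes (bottom), in CWR22Rv1 (left) and DU145 (right), with separate axes (red, adjusted p under 0.05; grey, not called; no point, too low to be tested). In DU145 the called genes of the top block all lie below 0, while CGAS, TBK1, LAP3, SLFN11, TRIM5 and TRIM14 lie above it.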

How the data were processed

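RNA from the 12 libraries was prepared with a stranded mRNA kit. The authors deposited 1 table of normalised counts per cell line, a signal that is not a raw count. The submitters' processing notes name FastQC, Salmon, DESeq2, R 3.5.3 and hg38, with no role or order. In every library 100% of the values were whole multiples of 1 read (tolerance 0.01). Count tests were run on these reads in CWR22Rv1. They were not run in DU145. In OE control replicate 3 and GALNT7 OE replicate 1 the value of 1 read was 1.008 and 1.002. Values so near 1 did not pass a check of the unit, although the multiples were whole there too.

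Log2(normalised count + 1) was tested by limma 3.58.1 (R 4.3.3, eBayes with trend) within each line, on genes with a mean of at least 5 over 6 libraries, two-sided. Adjusted p-values (Benjamini-Hochberg, over all genes tested) were called under 0.05. Fold changes understate low genes. An exact permutation test of 3 against 3 cannot go below 0.1. edgeR 4.0.16 and DESeq2 1.42.0 were alternatives. The limma fits were checked on simulated counts with the same fixed spread setting for every gene and the same size of change. Only genes with a mean of at least 50 were changed, so low members and smaller changes were not covered. Per-kilobase levels used GENCODE 29, which held 94.4% of the identifiers.

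The members and lists were chosen with earlier results of these data known, so they give no independent support. Values of every library are given for the factors, DDX58, IFIH1, DHX58, every member called in knockdown and the 12 largest changes with a mean of at least 50 and no overlap. Added lists were named for up to 4 called genes of highest mean; IFNAR1, IFNGR1 in DU145, CGAS and the further genes, libraries or low members beyond these rules were chosen after their values were seen. A few genes are not reported here.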

Additional observations from a re-analysis of the deposited data

How the results depend on the processing

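In DU145, 23 of the 33 falls and the rise of EIF2AK2 were kept under all 18 alternatives, and the number of calls (34) ranged from 24 to 36. The median log2 change of -0.95 moved to -1.05 with 75th percentile scaling. In CWR22Rv1 only the fall of IFITM3 was kept under all 20 alternatives. Its 5 calls became 3 with no filter, 3 without the trend, 1 with the replicate block, 1 at adjusted p 0.01 and 1 to 5 with 1 library left out. The median there (0.03) ranged from -0.0064 to 0.16 with 1 library left out, the highest without shControl replicate 1. edgeR and DESeq2 also called 5 members. No called member changed direction, while 14 uncalled members in CWR22Rv1 and EPSTI1 in DU145 changed sign under some alternative.

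Over all genes the knockdown gave 1623 calls, against 1546 by edgeR, 2666 by DESeq2, 1002 with the replicate block, 996 without the trend, 392 at adjusted p 0.01 and 525 to 1332 with 1 library left out. Overexpression gave 8132 calls, and 5303 at adjusted p 0.01. To look for pairing, the mean of its group was subtracted from each log2 value, gene by gene. The deviations of same-numbered control and treated libraries correlated at -0.01, 0.07 and -0.01 in CWR22Rv1 and 0.04, 0.04 and 0.02 in DU145. Those of libraries with different numbers correlated at -0.06 to 0.07 in CWR22Rv1 and -0.04 to 0.004 in DU145. In CWR22Rv1 replicate 2 had the lowest mitochondrial share of both groups, at 0.88% in each. These values do not settle whether the replicate numbers pair the libraries. The block gave 31 calls on the list in DU145 and cost IFI35, DTX3L, ISG20 and IRF9 their calls while PARP12 gained one. At this depth 14 members in CWR22Rv1 and 6 in DU145 lay below the minimum mean of 5 and were not tested. Count tests in DU145 were not run.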
